A study of Bos taurus with 6 samples.

Results

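The HOXA locus of bovine embryonic stem cells was described here as the stretch of chromosome 4 between 69.2 Mb and 69.45 Mb (UMD3.1), an interval of 250 kb. Its members are the peak summits of 4 lists that fall in this interval, 119 of 88657. They comprise 44 H3K27me3 summits of line A and 49 of line B, with 10 and 16 H3K4me3 summits. The interval was chosen by its position, with earlier results of the same lists in view in which it stood out for the width of its H3K27me3. Its H3K27me3 width and summit counts are therefore given as descriptions without a test.

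The cells are embryonic stem cells derived from bovine blastocysts, from a pair of independent lines named A and B. Both were at passage 12, untreated and grown on mouse embryonic fibroblasts in CTFR medium with human FGF2 and IWR1, an inhibitor of WNT signalling, and the fibroblasts were removed with magnetic beads before chromatin was made. Each mark has 1 ChIP-seq library per line (n = 2 lines per mark), so no test across samples could be made, and a difference between lines is a difference between those libraries. Fibroblasts left after the bead step were not measured in these lists, and their part in any summit was not tested.

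HOX genes encode homeodomain transcription factors that give cells their position along the head-to-tail axis of the embryo. They lie in clusters in which the order of the genes follows the order in which they are switched on and the position along the axis at which they act. In pluripotent cells the clusters are held silent by Polycomb complexes, which lay down H3K27me3 over long stretches. H3K4me3, typical of promoters that are active or poised, marks shorter sites within these stretches, and the joint presence of both marks is called bivalency.

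The 9 genes listed for the locus are HOXA2, HOXA3, HOXA4, HOXA5, HOXA6, HOXA7, HOXA9, HOXA10 and HOXA11. HOXA2 and HOXA3 act in the hindbrain and the pharyngeal arches, HOXA5 in the neck, the thorax and the lung, and HOXA9, HOXA10 and HOXA11 in the trunk, the limb and the reproductive tract. All 9 of 9 were found in the RefSeq gene table of a later assembly, ARS-UCD2.0. There they run in the order HOXA11, HOXA10, HOXA9, HOXA7, HOXA6, HOXA5, HOXA4, HOXA3 and HOXA2, with HOXA13 before HOXA11 and EVX1 beyond HOXA13. Positions of different assemblies cannot be mixed, and the lists name no genes. The summits are therefore given by position, none is assigned to a single gene, and the direction of the gene order in UMD3.1 was not examined.

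H3K27me3 lay across the middle of the interval, with gaps, and stopped on both sides. In line A it ran from 69252577 to 69413727, over 161 kb, and in line B from 69244889 to 69409130, over 164 kb. The lines thus ended within 8 kb of each other on both sides. The first 25 kb and the last 25 kb of the interval held no summit of either mark in either line. Outside, the nearest H3K27me3 summit to the left lay 164 kb from the first one inside in line A, with a peak score of 7.45, and 1045 kb away in line B, with a score of 5.33. To the right the next was 57.3 kb from the last one inside for line A and 63.7 kb for line B, with scores of 8.19 and 3.54. The score is a −log10 p or q value that the peak caller gave to each peak, as the authors deposited it. It moves with the depth of a library, so scores are also given below as a percentile, the percent of autosomal summits of the same list with a lower score.

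H3K4me3 began and ended near the ends of the H3K27me3 stretch, except on the right in line A, where it stopped earlier. The summits of line A ran from 69252546 to 69400543, over 148 kb, and those of line B from 69246148 to 69408843, over 163 kb. Outside, the nearest were 326 kb and 320 kb to the left, with scores of 37.6 for line A and 121 for line B. To the right they lay 180 kb and 172 kb away, with scores of 50.2 and 103. Both outer sites scored above every H3K4me3 summit inside the interval in the same line, where the highest was 26.5 for line A and 54.2 for line B.

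**Figure D1:**
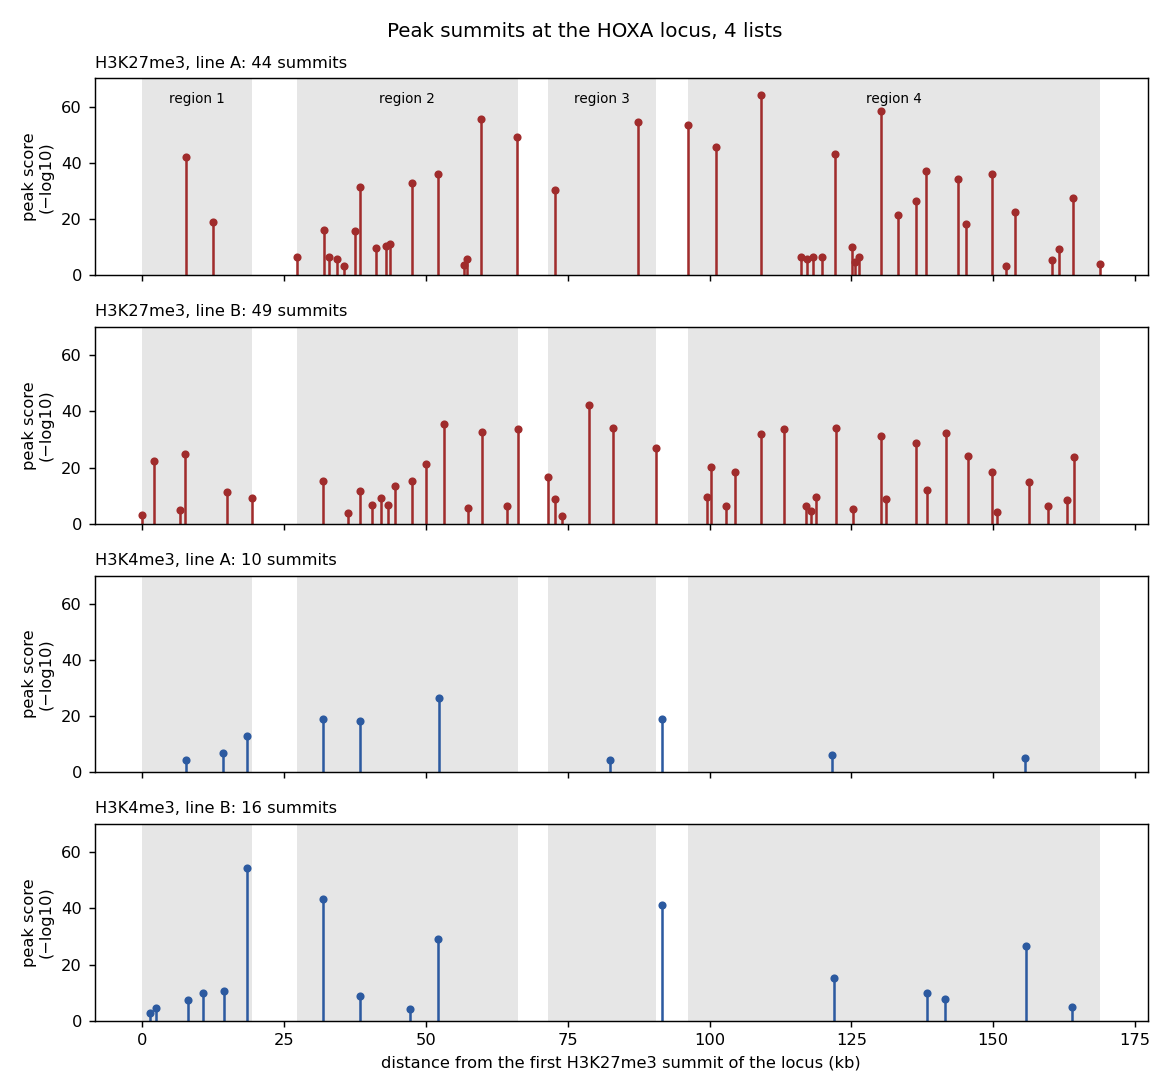
Peak score (−log10) of every summit of the interval against its distance in kb from the first H3K27me3 summit, with 1 panel for each mark and line and the 4 chained regions in grey. H3K27me3 covers the same stretch in both lines, from 161 to 164 kb, and H3K4me3 is sparser, with 10 summits for line A and 16 for line B.

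Summits of both lines up to 5 kb apart were chained into 4 H3K27me3 regions. Region 1, at 69244889 to 69264125, held 2 summits of line A and 6 of line B. Region 2, at 69272098 to 69311067, held 16 and 14. Region 3, at 69316364 to 69335429, again held 2 and 6. Region 4, at 69341100 to 69413727, held 24 and 23. All 93 H3K27me3 summits of the interval lay in these regions, and most lay in regions 2 and 4, which the lines filled to a like degree. The gaps between the regions were 7.97 kb, 5.30 kb and 5.67 kb.

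The width of a domain depended on the gap allowed. Region 4, the widest, spanned 72.6 kb for line A and 64.8 kb for line B, 68.7 ± 5.54 kb (SD, n = 2). Its borders were set by the summits of both lines together, so these widths are not independent. The SD is therefore no measure of how far widths found in each line alone would differ. With gaps up to 7.5 kb, a value chosen after the gaps were seen, regions 2 to 4 joined into 1 domain from 69272098 to 69413727 with 42 and 43 summits and a mean width of 137 kb. With gaps up to 10 kb all 93 summits formed 1 domain with a mean width of 163 kb. With gaps up to 2.5 kb the widest was a stretch of 12.2 kb at 69276752 to 69289455. The summits of a single line, chained up to 5 kb apart, formed shorter chains, and the widest then lay in region 2 and not in region 4. For line A it was 69272098 to 69304555 (32.5 kb), and for line B 69276752 to 69311067 (34.3 kb). In all, the locus was a run of closely spaced peaks with few gaps over 5 kb, 9 for line A and 7 for line B. The longest gap within the run was 14.8 kb in line A, from 69257252 to 69272098, and 12.6 kb in line B, from 69264125 to 69276752. Both lie at the border of regions 1 and 2.

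H3K27me3 scores at the locus were middling for their lists. In line A they ranged from 3.21 to 64.0 with a median of 17.1, at percentile 59.3, and in line B from 2.72 to 42.3 with a median of 13.4, at percentile 50.5. Of the 44 summits of line A, 24 scored above the autosomal median of that list, 11.4, and of the 49 of line B 25 scored above 13.2. In line A 6 summits were above the upper quartile of the list, which was 46.3. In line B none was, the quartile being 68.9.

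In both lines the highest score lay in the middle of the locus. By stretches of 25 kb from base 69250001 on, the highest score of line A was 42.2, then 36.2, 55.7, 54.5, 64.0 and 58.3, and 27.4 in the stretch from 69400001. In line B the same stretches peaked at 24.6, 35.4, 42.3, 33.9, 33.9, 32.2 and 23.9. The end stretch from 69400001 was the lowest of these 7 in both lines. The 5 highest of line A were at 69353995 (64.0), 69375117 (58.3), 69304555 (55.7), 69332197 (54.5) and 69341100 (53.3). Those of line B were at 69323591 (42.3), 69298041 (35.4), 69327929 (33.9), 69367131 (33.9) and 69311067 (33.9). None of the 10 positions was on both lists of 5, although 3 of the 5 from line A had a line B partner within 1 kb, as had 2 of the 5 from line B with line A.

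Some strong summits stood in a row, mainly in line A. From 69304555 to 69353995 line A had 7 summits in succession above its autosomal median, with scores from 30.2 to 64.0 over 49.4 kb. A second row of 7 in line A ran from 69375117 to 69394747, with scores from 18.1 to 58.3 over 19.6 kb. The longest such row of line B had 4, from 69289455 to 69298041. With about as many summits above the median as below it, short rows arise in any order. The lengths of the rows were not tested. Short rows of weak summits were seen as well. Line A had 4 in succession between 69361069 and 69364780, with scores from 5.65 to 6.54, and line B had 5 between 69281164 and 69288131, with scores from 3.72 to 11.7. Line B was also weak in the stretch where line A had its row of 4, at 69361916 (6.28), 69362697 (4.41) and 69363569 (9.34).

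Strong summits were spaced more widely than weak ones. In line A the nearest summit of the same list was a median of 2691 bases away for those above the autosomal median and 1028.5 bases for the others. In line B these medians were 2423 and 1412 bases. The same held in 213 other broad regions of the autosomes, with 1762 and 1109.5 bases for line A, and 1937 and 1340.5 bases for line B. The strong summits of the locus thus lay farther from their nearest neighbour of any strength than those elsewhere, while the weak ones were about alike. The locus values include regions 1 and 3, where summits of line A were few. Summits above the autosomal median made up 54.5% at the locus for line A and 51.0% for line B. Both shares were near the even split that a median gives over all autosomal summits. In the 213 other broad regions the shares were lower, at 38.5% and 29.4%. The lists hold no peak widths, so how many bases each peak covered was not examined.

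The lines placed H3K27me3 summits near each other but seldom at the same base. In line A 29 of 44 summits (65.9%) were within 1 kb of a line B summit, against 66.0% of all autosomal summits of that list. In line B 29 of 49 (59.2%) were that near to line A, against 83.6%. The share of line A was thus near its background and that of line B below it. Pooled over lines it was 62.4%, and 46.2% within 500 bases and 95.7% within 5 kb. The median distance to the other line was 551 bases for line A and 757 bases for line B.

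Paired as each other's nearest summit within 1 kb, the lists gave 24 H3K27me3 pairs, with 20 summits of line A and 25 of line B left without a partner. The pairs lay a median of 124 bases apart, from 2 bases at 69353993 to 802 bases at 69345154, and 10 were within 100 bases. Over all autosomes 10406 such pairs lay a median of 45 bases apart. By line A the strongest pair was that at 69353993, with 64.0 for line A and 31.8 for line B. It was followed in line A by 69375034 (58.3 and 31.3) and 69304555 (55.7 and 32.7). By line B the strongest pair was that at 69366904, with 33.9 for line B and 43.3 for line A. The weakest was at 69280407, with 3.24 and 3.72. Strong pairs of line A were mostly strong in line B (Spearman rho = 0.85 over 24 pairs, given as a description, since pairs of 1 locus share their libraries). Over all autosomal pairs it was 0.90.

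Line A ranked most of these pairs higher than line B did, as it also did with most autosomal pairs. The percentile was higher in line A in 21 of 24 pairs (87.5%), and over all autosomal pairs in 74.4%. The score itself was higher in line A in 19 of 24, against 61.0% on autosomes. Paired summits had higher median scores than single ones, at 28.8 for line A and 15.2 for line B, against 7.95 and 11.2 for summits of 1 line alone. By the cut at the autosomal median the lines differed. In line A 70.8% of summits above it had a line B summit within 1 kb, against 60.0% of the others. In line B these shares went the other way, at 56.0% and 62.5%. Some single summits were strong. Line A had one at 69332197 (54.5), 3232 bases from the nearest of line B, and line B had one at 69323591 (42.3), 5918 bases from the nearest of line A. No more than 4 H3K27me3 summits were over 5 kb from the other line. All were of line B, at 69244889, 69247002, 69264125 and 69323591, and 3 of them lie in region 1.

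**Figure D2:**
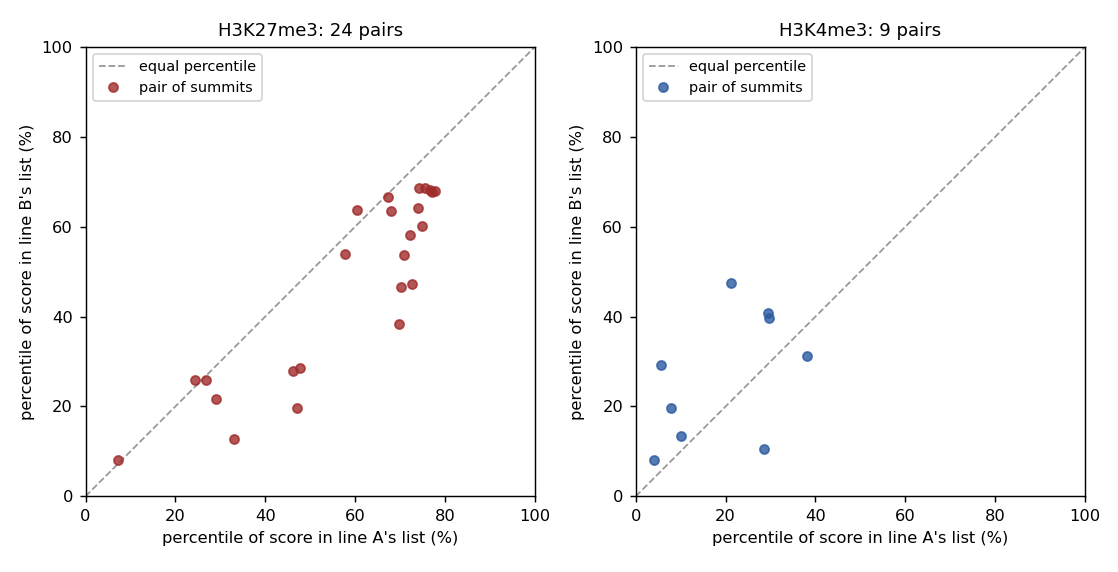
Percentile of the peak score in the list of line A (x axis, %) against that in line B (y axis, %) for summits paired within 1 kb, H3K27me3 on the left and H3K4me3 on the right. Of 24 H3K27me3 pairs 21 lie below the line of equal percentiles, and all 9 H3K4me3 pairs lie below percentile 50 in both lines.

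H3K4me3 sites lay along the whole domain and scored low for their lists. The median score was 9.88 in line A, at percentile 15.9 of its list, and 10.0 in line B, at percentile 12.6. No H3K4me3 summit of the interval scored above the autosomal median, which was 38.6 for line A and 59.2 for line B. At or under the lower quartile of their list were 6 of 10 summits of line A and 11 of 16 of line B. The lines together had 17 sites, of which 9 were in both lines, 1 in line A alone and 7 in line B alone. From line A 9 of 10 summits (90.0%) had a partner within 1 kb, against 93.7% of its autosomal list. From line B 9 of 16 (56.3%) had one, against 88.6%. Over both lines 69.2% of summits had a partner.

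The sites fell into a group at the left end, a group in region 2, a solitary site in the middle and a thin series in region 4. At the left end, in region 1, line B had summits without a partner at 69246148 (2.65), 69247325 (4.56) and 69255575 (10.0). The site at 69252546 had scores of 4.31 for line A and 7.35 for line B, and that at 69259112 had 6.93 and 10.6. The last site of the group, at 69263234, had 12.8 for line A and 54.2 for line B. It was the strongest of line B in the interval, at percentile 47.4, while in line A it stood at percentile 21.2. Of all 9 sites found in both lines it had the largest difference in percentile between them.

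Region 2 held 3 of the 4 highest-scoring H3K4me3 sites of line A, and the solitary site in the middle was the other. At 69276746 the scores were 19.0 for line A and 43.3 for line B, and the summits lay 24 bases apart. At 69283167 they were 18.1 and 8.66, the only pair with a higher score in line A. At 69296983 they were 26.5, the highest of line A, and 29.3. A summit at 69292014 was in line B alone, with 4.28. The solitary site at 69336468 lay outside the 4 regions, in the gap between regions 3 and 4. It had 19.0 for line A and 41.3 for line B, and its summits were 3 bases apart, the closest match among the H3K4me3 sites of the locus.

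Around that site H3K4me3 was thin. In line B there was none for 39.5 kb between 69296983 and 69336468, and in line A the only one there was at 69327394 (4.31). Region 4, the widest, held sites of both lines at 69366447 (6.13 and 15.4) and 69400543 (5.19 and 26.7). Summits of line B alone lay at 69383174 (10.0), 69386311 (7.84) and 69408843 (4.92). All 8 H3K4me3 summits of the locus found in 1 line alone scored 10.0 or less.

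The scores of line B were higher than those of line A at 8 of the 9 shared sites, and over all autosomal H3K4me3 pairs line B was higher in 91.1%. The percentile was higher in line B at 7 of 9, against 57.8% of autosomal pairs. The pairs lay a median of 116 bases apart, against 52 bases over 18249 autosomal pairs, and none was over 353 bases apart. Spearman rho between the scores of the lines was 0.55 over the 9 sites and 0.91 over all autosomal pairs, again as a description. All 9 sites scored below the autosomal median in both lines, while the autosomal pairs cover the whole range of scores. The values of rho are therefore not like for like.

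Both marks lay close together at many of these sites. In line A 5 of 10 H3K4me3 summits had H3K27me3 within 1 kb, against 24.2% of autosomal H3K4me3 summits. In line B 13 of 16 (81.3%) had one, against 19.8%. Both shares were above the background, in a stretch that was chosen for its H3K27me3. The marks come from separate libraries of many cells, so that both need not lie on the same chromosome copy or in the same cell. Within 2 kb the pooled share was 84.6% and within 5 kb 96.2%.

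At 4 sites both marks were within 1 kb of each other in both lines. At 69283167 the H3K27me3 summit was 8 bases away for line A and 121 bases for line B. At 69276746 it was 69 and 18 bases away, at 69252546 31 and 540 bases, and at 69366447 457 and 348 bases. The H3K27me3 summits beside them were above the autosomal median of their list, except the one of line B near 69283175. The pair near 69276752 had 16.0 for line A and 15.2 for line B. The pair near 69366904 had 43.3 for line A and 33.9 for line B, the pair near 69252359 had 42.2 and 24.6, and that near 69283175 had 31.5 and 11.7. Other H3K4me3 sites stood apart from H3K27me3 summits. The site at 69336468 was 4274 bases from the nearest for line A and 1039 bases for line B, and that at 69263234 was 6037 and 891 bases away.

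The score of H3K4me3 had no fixed relation to H3K27me3 nearby. In line A the median H3K4me3 score was 18.1 with H3K27me3 within 1 kb and 6.93 without (5 summits each). In line B it was 8.66 with (13 summits) and 29.3 without (3 summits). Over autosomes the score was lower with H3K27me3 in both lines, at 22.4 against 46.2 for line A and 34.9 against 70.4 for line B.

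Most H3K27me3 summits had no H3K4me3 summit nearby. In line A 6 of 44 (13.6%) had one within 1 kb, against 31.1% of the autosomal list, and in line B 13 of 49 (26.5%), against 34.0%. Those with H3K4me3 had a median H3K27me3 score of 33.8 for line A and 15.2 for line B, and those without had 10.8 and 9.37. The H3K27me3 summits at the H3K4me3 sites were thus higher than the rest in both lines.

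The locus was set against broad autosomal H3K27me3 regions built in the same way. These were 215 regions in which each line had at least 5 summits, which lay a median of over 100 bases from those of the other line. Regions 2 and 4 of the locus are among them, while regions 1 and 3 had too few summits of line A. Their median width was 15.8 kb, and only 9 were over 40 kb wide. Region 4 was the second widest and region 2 ranked 10 of 215. The widest was at 2589210 to 2675654 on chromosome 25 (82.5 kb), and after region 4 came 38544455 to 38605570 on chromosome 19 (56.3 kb) and 64189812 to 64244295 on chromosome 18 (54.4 kb). These 2 and region 4 had a like distance between lines, of 479, 479 and 448 bases. Among all 398 autosomal regions of that summit number, at any distance between lines, region 4 ranked 22 by width.

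Width ranks moved with the gap allowed. With gaps up to 7.5 kb or 10 kb the HOXA domain was the widest, of 236 and 252 such regions. The next widest at both gaps was at 20759302 to 20882976 on chromosome 2, with 121 kb and with 41 summits of line A and 34 of line B. With gaps up to 2.5 kb the widest stretch of the locus ranked 31 of 98.

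Region 4 was wide and strong, and sparser than the median of the 215 regions. Its median H3K27me3 score was 19.8 in line A, rank 21 of 215, and 14.7 in line B, rank 28. Among the 10 widest regions it ranked first by score in both lines, with the next at 12.4 for line A and 12.8 for line B. It had 3.30 H3K27me3 summits per 10 kb for line A and 3.17 for line B, below the medians of 4.97 and 4.43 over the 215 regions. The median gap between its summits was 2466 bases for line A and 3287 bases for line B, against 1895 and 1948. Because each region had at least 5 summits per line, narrow regions cannot have few summits per 10 kb. Among the 10 widest regions the summits per 10 kb ran from 3.11 to 6.44 for line A and from 2.31 to 4.51 for line B. Region 2 was nearer the middle of the set, with median scores of 10.8 (rank 86) and 12.6 (rank 51) and with 4.11 and 3.59 summits per 10 kb.

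Region 4 had few H3K4me3 summits per 10 kb beside the 215 regions, most of which were narrower. It had 0.275 H3K4me3 summits per 10 kb for line A and 0.688 for line B, counting 1 kb on each side, against medians of 1.10 and 1.72. Of the 215 regions 42 had fewer per 10 kb by line A, and 42 by line B. The flanks were counted but not added to the length, which raises the rate most in narrow regions. Among the 10 widest regions the rate ran from 0 to 1.39 for line A and from 0 to 1.85 for line B, so region 4 was not set apart from those. The median H3K4me3 score in region 4 was 5.66 for line A and 10.0 for line B, against medians of 12.2 and 15.0 over the regions with any. The widest region, on chromosome 25, had 1.39 and 1.85 H3K4me3 summits per 10 kb and median H3K4me3 scores of 19.6 and 70.5. The one on chromosome 19 had a single H3K4me3 summit in line A and none in line B. Region 2 had 0.770 and 1.03 per 10 kb, with median scores of 19.0 in both lines.

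Agreement between lines was within the range of the other regions of this set. The set had itself been chosen by the distance between lines, and regions where the lines lay closest were left out. The values therefore do not show how the locus stands among all autosomal regions in its agreement between lines. In region 4 66.0% of summits had a partner within 1 kb, against an interquartile range of 64.7% to 84.9% over the 215 regions, and in region 2 76.7% had one. The median distance between lines was 448 bases in region 4 and 551 in region 2, against 390 bases.

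**Figure D3:**
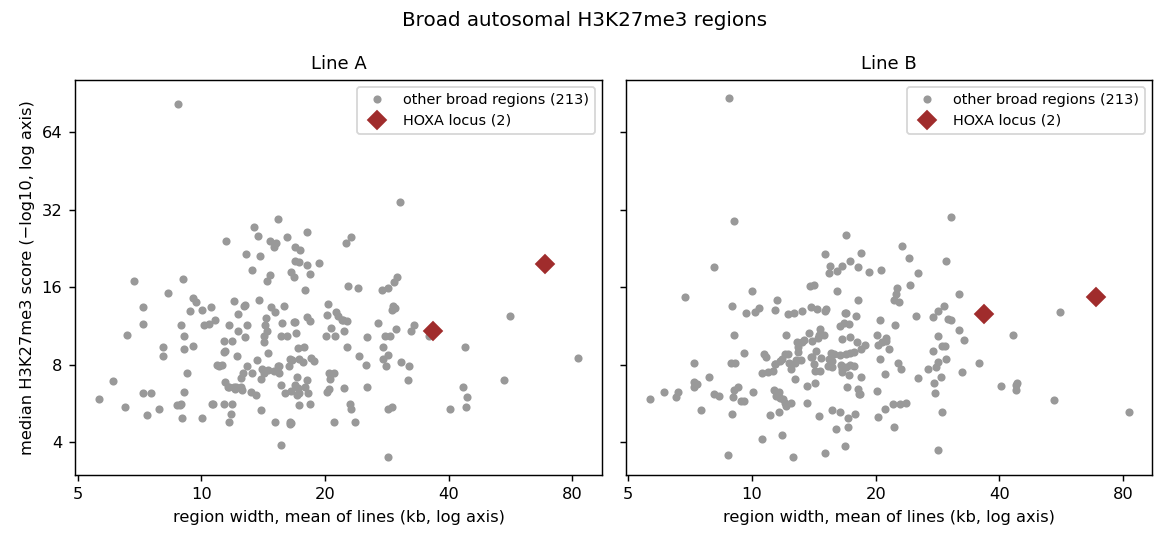
Median H3K27me3 score (−log10, log axis) against the mean width over lines (kb, log axis) of 215 broad autosomal regions, with line A on the left, line B on the right and the 2 regions of the HOXA locus as diamonds. Region 4 is the second widest, at 68.7 kb, with a median score of 19.8 for line A and 14.7 for line B.

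Counted in windows as long as the interval, the locus was dense in both marks. Of 10064 autosomal windows of 250 kb, 37 (0.368%) held at least as many H3K27me3 summits as the interval for line A and 19 (0.189%) for line B. For H3K4me3 these were 329 (3.27%) for line A and 102 (1.01%) for line B. The median window held 0 H3K27me3 summits and 1 H3K4me3 summit in each line. The interval was placed around its domain and the other windows were not, so the shares describe the interval and are no test. In 19 windows both lines had at least as many H3K27me3 summits as the interval, which counts itself, and 17 of them held a region in which the lines' summits lay a median of at most 30 bases apart. The other such window was on chromosome 25, at 32200001 to 32450000, with 70 and 53 H3K27me3 summits but 0 and 1 H3K4me3 summits. The HOXA interval was the only 1 of the 10064 windows to reach its own counts in all 4 lists. Those counts were themselves the limits, and some windows fell short in H3K27me3 of line B alone. Among them was a window with 64 and 40 H3K27me3 summits and 19 and 25 H3K4me3 summits for lines A and B. Another held 56 and 41, with 11 and 27. Density in both marks was thus not particular to the interval.

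**Figure D4:**
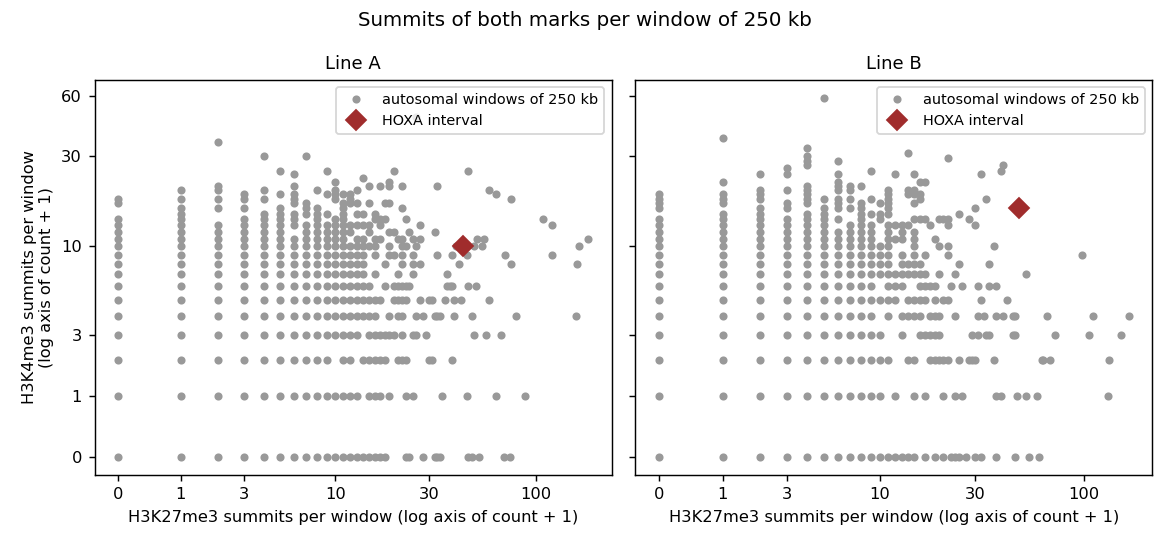
H3K27me3 summits (x axis) and H3K4me3 summits (y axis) in autosomal windows of 250 kb, on log axes of the count plus 1, for line A on the left and line B on the right. The HOXA interval, the diamond, holds 44 and 10 summits of line A and 49 and 16 of line B, while the median window holds 0 and 1.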

How the data were processed

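Per the submitters' processing notes, reads were aligned with BWA to UMD3.1 and peaks called with MACS2, with no versions given. Parameters, and whether the input served as control, are not given in the sources used here. Per library the authors deposited 1 peak list, with 1-base summits and a score taken to be a −log10 p or q value because each list starts just above 2. Peak numbers run without a break, and the lists hold no reads or widths, so depth is unknown and limits which weak peaks appear. The input libraries were not analysed here.

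Positions were counted from 1. Sharing meant a summit at most 1000 bases away. Regions were summits of both lines chained up to 5000 bases apart, a step that recovered 40 of 40 regions planted in simulated lists. The planted summits lay closer together than this limit and the planted regions far apart, so the recovery was fixed in advance. It checks the code and not the borders found at the locus. Values were compared with autosomal lists, broad regions and windows by counts, medians and ranks, with no test. The positions named were all H3K4me3 summits, all regions, the 5 highest H3K27me3 summits per line, summits over 5 kb from the other line, and the widest reference regions, with further pairs, singles and windows picked after their values were seen. The interval, the gene list and the limits of 100 and 30 bases were chosen with earlier results of these data known. The software was Python 3.11.15 with pandas 2.3.3, numpy 2.4.6, matplotlib 3.10.9 and scipy 1.17.1.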

Additional observations from a re-analysis of the deposited data

How the results depend on the processing

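Of 50 alternatives, 31 stayed within 1.5 times of a count or within 1 SD between lines of another value, and 19 moved further. The SD comes from the same 2 lines, and the value of either line lies within 1 such SD of their mean. Sharing of H3K4me3 thus counted as unmoved at 90.0% (line A) and 56.3% (line B), against 69.2% with an SD of 23.9. Keeping only chained regions could not change the H3K27me3 counts or sharing, since every such summit lies in them. The number 31 is therefore no measure of robustness. A gap of 7.5 kb was added after seeing the data. With only peaks above the median score of their list, which leaves fewer summits by construction, the interval held a mean of 28.5 H3K27me3 summits per line, against 46.5, and 0 H3K4me3 summits, against 13, so sharing of H3K4me3 could not be computed. The widest domain was then 24.9 kb with a median gap of 3649.5 bases, against 68.7 kb and 2876.5 bases. Chaining up to 2.5, 7.5 and 10 kb gave widths of 12.2, 137 and 163 kb and ranks of 31, 1 and 1, and the rank among all autosomal regions was 22, against 2. Either line alone gave widths of 32.5 to 34.3 kb and median gaps of 1799.5 to 2423 bases, for chains in region 2 and not in region 4. The median distances between lines were 551 to 757 bases, against 739. H3K27me3 sharing was 46.2%, 78.5% and 95.7% within 500 bases, 2 kb and 5 kb, and 96.2% of H3K4me3 summits had H3K27me3 within 5 kb. With 1 library per mark and line, depth and line cannot be told apart.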

Other observations

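Several peaks of the interval had exactly the same score. In the H3K27me3 list of line A 5 summits of the interval had a score of 6.54, a value shared by 420 summits of the whole list, and 2 had 5.65, shared by 548. Another 2 had 36.2, shared by 8. In line B 2 had 6.28, shared by 271, and 2 had 33.9, a value of no other summit of that list. In the H3K4me3 lists 2 summits of line A had 4.31, shared by 34, and 2 of line B had 10.0, shared by 30.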
